A study of Macaca mulatta with 18 samples.

Results

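The 10 serotonin receptor genes HTR1A, HTR1B, HTR1E, HTR1F, HTR2A, HTR2C, HTR4, HTR5A, HTR6 and HTR7 were followed across 3 brain regions of rhesus monkeys (Macaca mulatta) of Indian and Chinese origin. They were chosen by symbol from the 30246 genes of the deposited tables, and each had 1 entry per table. The same 6 adult monkeys gave striatum (STR), prefrontal cortex (PFC) and cerebellum (CER), which makes 18 libraries, 3 in each of the 6 groups of origin and region. Monkeys of Indian origin, aged 7.5, 15 and 16 years, had been born at the primate center. Those of Chinese origin, aged 10.5, 11 and 11.5 years, had been brought there as young adults. All were fed the same stock diet with seasonal fruits and vegetables, and no group was treated. Origin therefore goes together with early life, and their parts cannot be told apart.

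Serotonin is released in the forebrain and cerebellum by fibers of raphe neurons in the brainstem, so the receptor genes are transcribed in the target regions while the genes of serotonin synthesis and reuptake are transcribed mainly in the raphe. Apart from the HTR3 ion channel subunits, the receptors couple to G proteins. HTR1A, HTR1B, HTR1E, HTR1F and HTR5A act through Gi and lower cyclic AMP, HTR2A and HTR2C act through Gq and phospholipase C, and HTR4, HTR6 and HTR7 act through Gs and raise cyclic AMP.

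The genes lie apart on 8 chromosomes of the mmul1 build, with positions counted from 1. The Gi-coupled group holds HTR1A (ENSMMUG00000001789) at chromosome 6, 61791036 to 61792301, HTR1B (ENSMMUG00000015717) at chromosome 4, 73563094 to 73564266, HTR1E (ENSMMUG00000000223) at chromosome 4, 82891003 to 82975998, HTR1F (ENSMMUG00000005238) at chromosome 2, 12226029 to 12227129, and HTR5A (ENSMMUG00000013084) at chromosome 3, 192175435 to 192189067. The Gq-coupled pair is HTR2A (ENSMMUG00000004210) at chromosome 17, 25652807 to 25715442, and HTR2C (ENSMMUG00000009607) at chromosome X, 113112475 to 113406953. The Gs-coupled group holds HTR4 (ENSMMUG00000016913) at chromosome 6, 144992054 to 145163691, HTR6 (ENSMMUG00000002491) at chromosome 1, 22317953 to 22330765, and HTR7 (ENSMMUG00000006627) at chromosome 9, 90272738 to 90384226. HTR1B and HTR1E share chromosome 4 and HTR1A and HTR4 share chromosome 6.

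The values are FPKM, fragment counts scaled to the length of the gene's exons and to library size, so that levels of different genes can be set side by side. The authors pooled the 3 monkeys of a group into 1 value per gene, so the spread between monkeys is unknown here, the depth of a library cannot be read from the tables (the study's supplement gives mean read numbers per group, not used here), no interval could be computed and no difference below has a test. A gene was called measured in a region when either origin had 0.5 FPKM or more. Differences are log2 ratios of FPKM + 0.1, which understates the change of genes with a low FPKM. Each region was quantified in its own run, so levels in different regions were normalized separately. By the paper, each region was also sequenced in its own lane, so region and lane cannot be told apart.

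The region labels were checked against marker genes. Of 14 striatal projection neuron markers, 13 were at least 2-fold higher in STR than in PFC in both origins, and all 14 were higher in STR than in CER. All 14 Purkinje and granule cell markers were at least 2-fold higher in CER than in either other region. Of 12 markers of cortical excitatory neurons, 11 were at least 2-fold lower in STR than in PFC. No gene of these 3 lists was at 0 in both origins of a region. Over all measured genes the values of Chinese-origin monkeys were shifted upwards, with a median log2 ratio of Chinese over Indian origin of 0.31 in STR, 0.19 in PFC and 0.10 in CER. Ratios called relative to the median below have this number subtracted.

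The make-up of the receptor transcripts differed between the 3 regions more than between the origins. In PFC, HTR2A took 38.8% of the summed FPKM of the 10 genes in monkeys of Chinese origin and 36.6% in those of Indian origin. In CER, HTR5A alone took 89.3% and 78.5%. In STR no gene took more than 25.7%, and HTR6, HTR2C and HTR5A led. With the Chinese-origin value first, the sum over the 10 genes was 66.5 and 56.6 FPKM in PFC, 81.7 and 67.9 in CER, and 68.5 and 47.3 in STR. By G protein class, the Gi-coupled receptors made up 37.5% and 35.7% of the sum in PFC, 95.7% and 83.8% in CER, and 34.0% and 36.4% in STR, in Chinese-origin and Indian-origin monkeys respectively. The Gs-coupled receptors reached 33.6% and 36.3% in STR but 0.568% and 0.764% in CER.

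**Figure D1:**
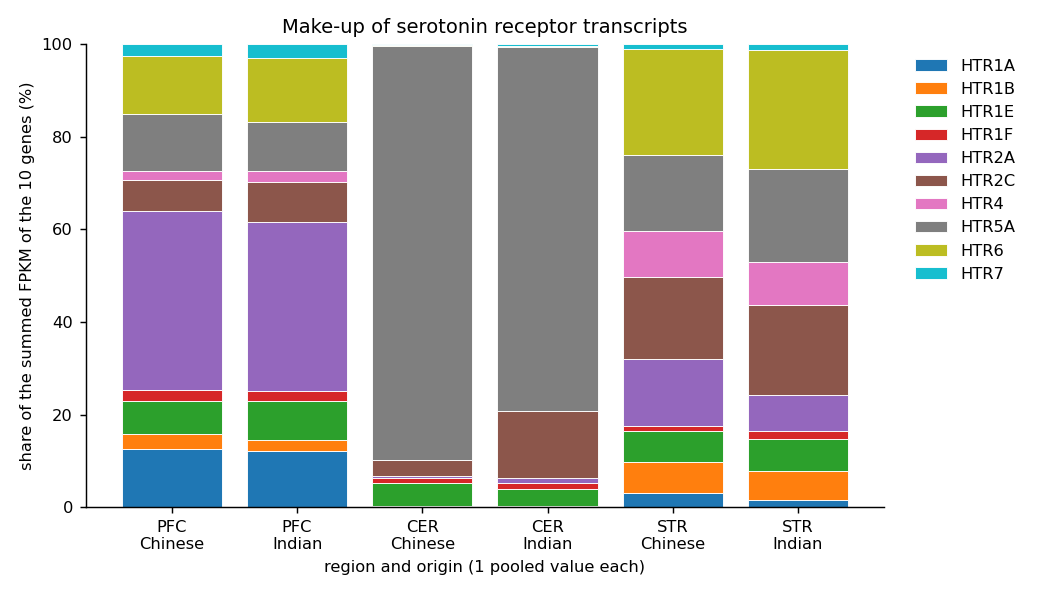
Share of each gene in the summed FPKM of the 10 serotonin receptor genes (y axis, percent), with 1 stacked bar per region and origin and 1 pooled value per bar segment. HTR5A fills 89.3% and 78.5% of the CER bars, and HTR2A is the widest segment in PFC with 38.8% and 36.6%.

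HTR5A, a Gi-coupled receptor, had the highest level of any member in any region. Its pooled FPKM in CER was 72.9 for Chinese and 53.3 for Indian origin, higher than 85.8% and 81.7% of measured genes. In PFC it was 8.15 and 6.01, and in STR 11.4 and 9.47. The CER values did not overlap those of the other regions and were 8.86-fold and 8.74-fold higher than in PFC, and 6.37-fold and 5.58-fold higher than in STR. HTR5A was the 1 member that was at least 2-fold higher in CER than elsewhere in both origins.

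HTR2A, the Gq-coupled receptor of cortical pyramidal neurons at which hallucinogens act, led in PFC. Its pooled FPKM in PFC was 25.8 for Chinese and 20.7 for Indian origin, well above those of the next member, HTR6 (8.34 and 7.89). In STR the HTR2A values were 10.02 and 3.66, and in CER 0.343 and 0.793. HTR2A was therefore highest in PFC and lowest in CER in both origins, with no overlap between regions. The PFC level was 58.5-fold and 23.3-fold higher than that in CER, and 2.56-fold and 5.53-fold higher than that in STR.

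HTR1A, the Gi-coupled receptor that also serves as the autoreceptor of raphe neurons, followed the same order. Its pooled FPKM was 8.32 and 6.87 in PFC, 2.18 and 0.789 in STR, and 0.0737 and 0.0617 in CER, the Chinese-origin value first. HTR1A in CER was below the level at which a gene was called measured. The PFC level was 3.69-fold and 7.84-fold higher than that in STR.

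HTR6 and HTR4, both Gs-coupled, were highest in STR and close to 0 in CER. The HTR6 FPKM was 15.6 and 12.2 in STR, 8.34 and 7.89 in PFC, and 0.150 and 0.129 in CER, in Chinese-origin and Indian-origin monkeys. HTR6 was the leading member in STR. The HTR4 FPKM was 6.68 and 4.41 in STR, 1.33 and 1.28 in PFC, and 0.0875 and 0.0834 in CER. HTR4 was the 1 member at least 2-fold higher in STR than in PFC in both origins (4.74-fold and 3.27-fold), while HTR6 was 1.86-fold and 1.53-fold higher.

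HTR1B, the Gi-coupled receptor of axon terminals, including those of striatal projection neurons, was likewise highest in STR and lowest in CER. Its FPKM was 4.47 and 2.89 in STR, 2.25 and 1.33 in PFC, and 0.166 and 0.150 in CER, in Chinese-origin and Indian-origin monkeys. The STR level was 1.94-fold and 2.09-fold that in PFC, so that only the Indian-origin values were 2-fold apart. HTR1A, HTR1B and HTR1F have gene models whose span of 1266, 1173 and 1101 bases is a multiple of 3, as in models without UTRs, so their levels against those of the other members are less certain.

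HTR7 was lowest in CER, while HTR1F and HTR1E were under 2-fold apart between any regions in both origins. HTR7, a Gs-coupled receptor, had an FPKM of 1.69 and 1.66 in PFC, 0.799 and 0.625 in STR, and 0.227 and 0.306 in CER, highest in PFC in both origins and 5.49-fold and 4.33-fold lower in CER than in PFC. HTR1E, a Gi-coupled receptor that mice and rats lack, had 4.74 and 4.78 in PFC, 4.57 and 3.30 in STR, and 3.95 and 2.54 in CER. The HTR1E values of STR and CER overlapped. HTR1F, a Gi-coupled receptor targeted by migraine drugs, had 1.47 and 1.23 in PFC, 1.01 and 0.785 in CER, and 0.729 and 0.794 in STR, where CER and STR overlapped.

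**Figure D2:**
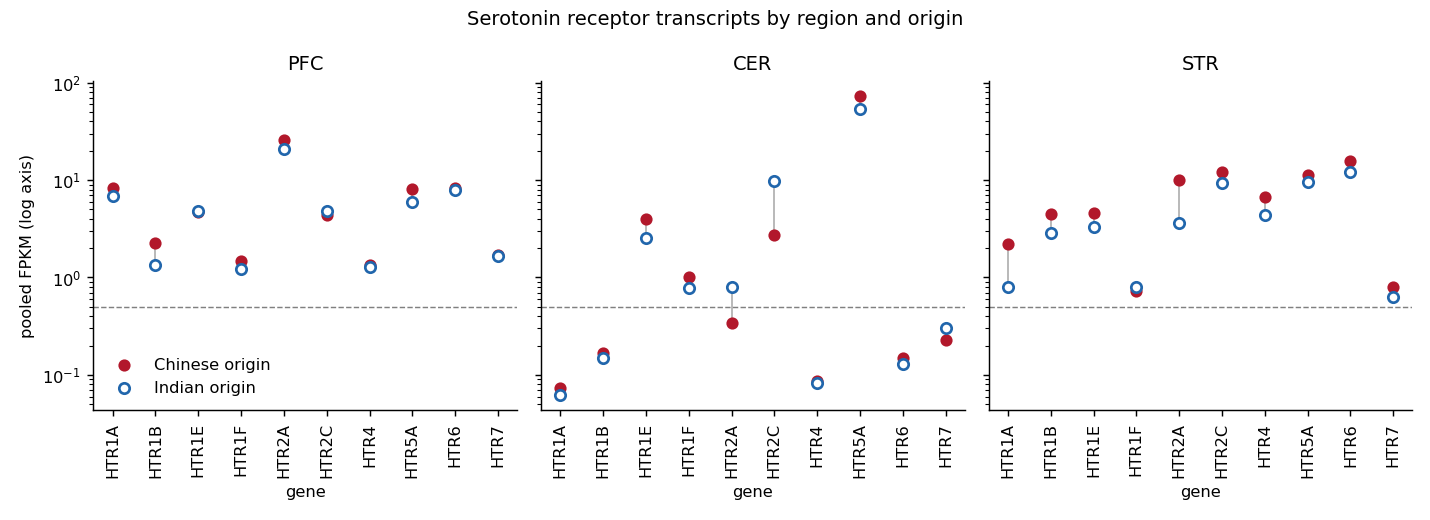
Pooled FPKM (y axis, log scale) of the 10 genes (x axis) in PFC, CER and STR, with a filled circle for Chinese origin and an open circle for Indian origin, each 1 pooled value of 3 monkeys. The dashed line marks the FPKM of 0.5 above which a gene was called measured, and 5 genes lie below it in CER in both origins.

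Counted over the 10 members, 7 were at least 2-fold apart between CER and PFC in both origins (HTR5A higher in CER and 6 lower), where 21.4% of 19647 measured genes were (12.5% higher and 8.9% lower). Between CER and STR the count was 6 (HTR5A higher in CER and 5 lower), beside 22.8% of 19795 genes (12.7% higher and 10.1% lower). In both comparisons HTR1A, HTR1B, HTR4, HTR6 and HTR7 were under 0.5 FPKM in CER and counted as measured through the other region alone. These shares are therefore not read as results about the members. Between STR and PFC the count was 3 (HTR4 higher in STR, HTR1A and HTR2A lower), beside 8.53% of 19451 genes (3.75% higher and 4.78% lower). The members' median log2 ratio of CER over PFC was -2.69 for Chinese and -2.32 for Indian origin, while that of all measured genes was 0.14 and 0.23. For STR over PFC the medians were 0.21 and 0.05 for the members and 0.06 and -0.01 for all genes. In bulk tissue, fewer cells of a type and less RNA per cell cannot be told apart.

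**Figure D3:**
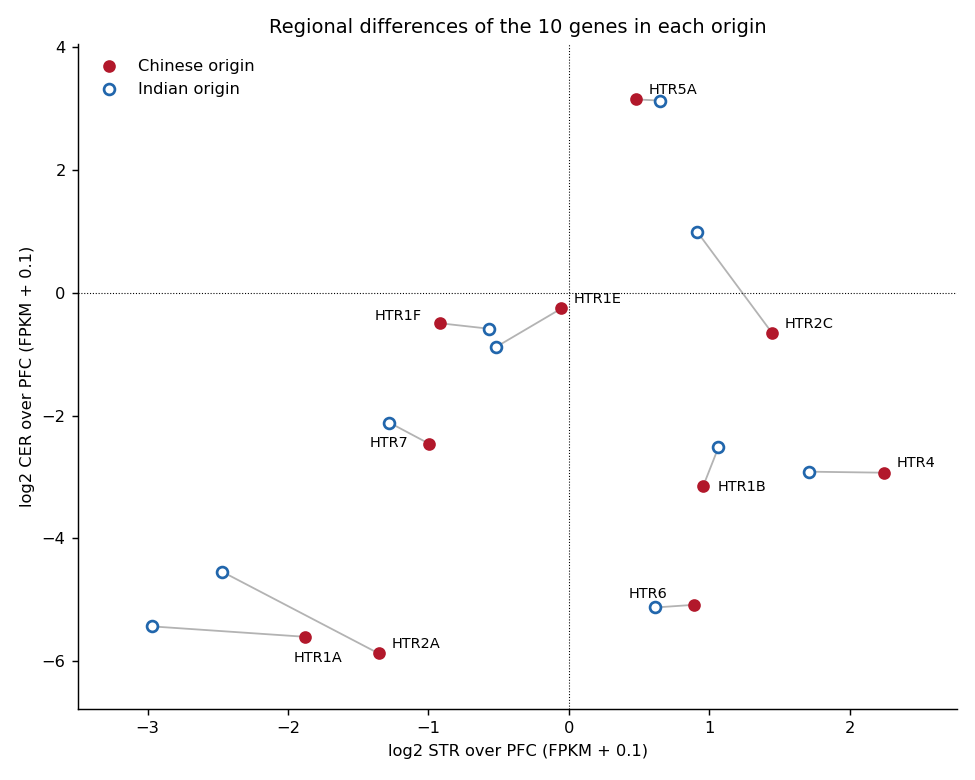
Log2 ratio of STR over PFC (x axis) against that of CER over PFC (y axis) on FPKM + 0.1 for each of the 10 genes, with a filled circle for Chinese origin and an open circle for Indian origin joined by a line. HTR5A stands alone at a CER over PFC ratio of 3.15 and 3.13, and the points of HTR2C lie on opposite sides of 0 on the y axis.

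Within a region, the order of neighbouring members was often not separated by the 2 origins. In PFC the values of HTR6, HTR1A and HTR5A overlapped in turn, as did those of HTR1E and HTR2C, of HTR1B and HTR7, and of HTR1F and HTR4. In STR the HTR6 values lay above all others, though its lower value (12.16) barely exceeded the higher value of HTR2C (12.15), while the members from HTR2C through HTR5A, HTR2A, HTR4 and HTR1E to HTR1B each overlapped the next. In CER, HTR5A stood alone, and HTR2C and HTR1E overlapped.

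The comparison of Chinese-origin with Indian-origin monkeys gave few differences of size in PFC. Of 10 measured members, 1 was at least 1.5-fold apart, HTR1B, beside 14.6% of 18349 measured genes (9.24% higher and 5.4% lower), so the members' share was not above that of all genes. HTR1B stood at 2.25 FPKM for Chinese and 1.33 for Indian origin, a log2 ratio of 0.72, or 0.53 relative to the median, which is under 1.5-fold. With the median subtracted 0 members were past 1.5-fold, beside 13.2% of all genes (6.45% higher and 6.73% lower). The other 9 log2 ratios ran from -0.14 (HTR2C) to 0.43 (HTR5A). The members' median was 0.16, beside 0.19 for all genes, and 5 of the 10 lay above the median of all genes.

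In STR, HTR2A and HTR1A were more than 2-fold higher in Chinese-origin monkeys. The HTR2A FPKM of 10.02 against 3.66 is a log2 ratio of 1.43 (1.12 relative to the median), and 4.91% of measured genes had a larger one. The HTR1A FPKM of 2.18 against 0.789 is a log2 ratio of 1.36 (1.05 relative to the median). HTR1B (4.47 and 2.89, log2 ratio 0.61) and HTR4 (6.68 and 4.41, log2 ratio 0.59) were just past 1.5-fold, and relative to the median they were at 0.30 and 0.28. In all, 4 of 10 members were at least 1.5-fold higher and 0 lower, beside 24.8% of 18512 measured genes (20.2% higher and 4.56% lower). With the median subtracted, 2 members (HTR1A and HTR2A) were higher and 0 lower, beside 15.7% of all genes (9.19% higher and 6.48% lower).

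The remaining STR members differed by less. HTR1E, HTR2C, HTR6, HTR7 and HTR5A had log2 ratios between 0.26 and 0.46, close to the median of all genes of 0.31. HTR1F was the 1 member lower in Chinese-origin STR (0.729 and 0.794, log2 ratio -0.11, or -0.42 relative to the median). The members' median in STR was 0.42.

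**Figure D4:**
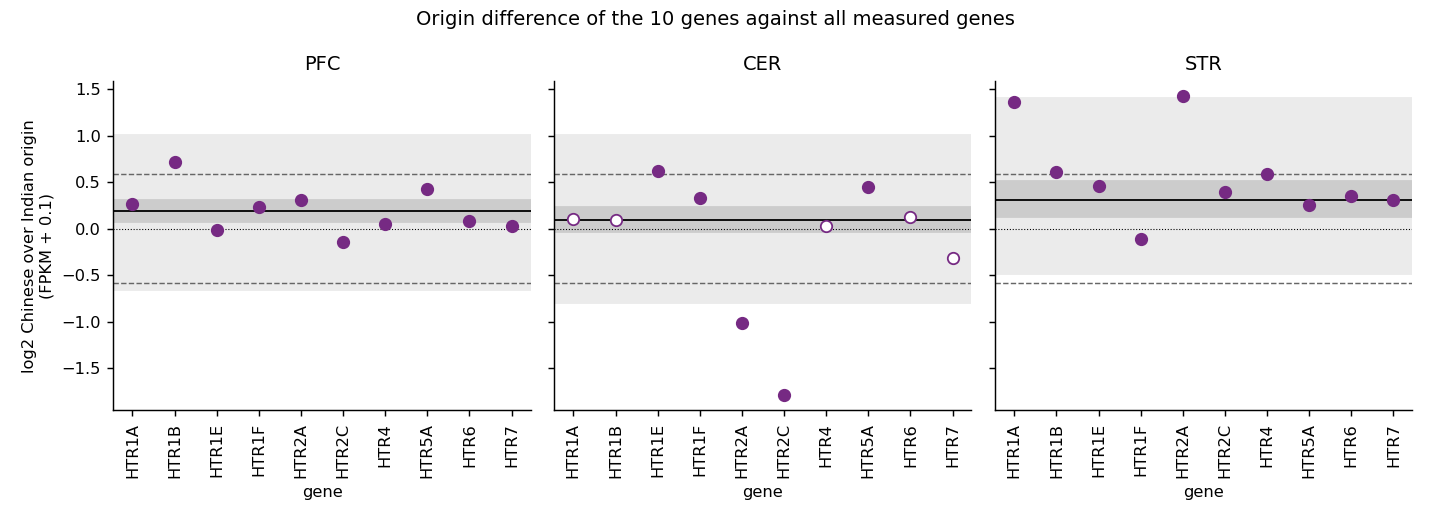
Log2 ratio of Chinese over Indian origin on FPKM + 0.1 (y axis) for the 10 genes (x axis) in each region, with open circles for genes under the FPKM minimum. The black line is the median of all measured genes, the dark and light bands are their interquartile range and their range from percentile 5 to 95, and the dashed lines mark 1.5-fold. HTR2A (1.43) and HTR1A (1.36) lie at the top in STR, and HTR2C (-1.79) and HTR2A (-1.01) at the bottom in CER.

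Cortical neuron markers were higher in the same Chinese-origin STR samples. Of 12 measured markers of cortical excitatory neurons, 11 were at least 1.5-fold higher and 0 lower in Chinese-origin STR, with a median log2 ratio of 2.06. Among all genes 20.2% were higher and 4.56% lower. Among the 11 was EMX1 (2.03 and 0.310 FPKM, log2 ratio 2.38), a transcription factor of the dorsal telencephalon. EMX1 counted as measured through its Chinese-origin value alone. The summed FPKM of this list was 2143 for Chinese and 1747 for Indian origin, most of it from NRGN, a calmodulin-binding protein also made by striatal neurons (1776 and 1621). In PFC the list had 0 of 12 markers 1.5-fold apart and a median of 0.23. Striatal projection neuron markers had 0 of 14 at least 1.5-fold apart in STR, a median of 0.18, and sums of 4422 and 3975 FPKM.

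HTR2A and HTR1A were the 2 members at least 2-fold lower in STR than in PFC in both origins, and they were also the 2 with the largest origin ratio in STR. Both comparisons use the same STR values. A low Indian-origin STR value (3.66 for HTR2A and 0.789 for HTR1A) moves a gene towards both, so their overlap is not read as a result. HTR3A, an ion channel subunit of cortical interneurons, had the same pattern, with 5.28 and 4.82 FPKM in PFC and 1.48 and 0.537 in STR, a log2 ratio of 1.31. Its Indian-origin STR value was near the minimum of 0.5. HTR7 and HTR1F were also higher in PFC than in STR, by 2.00-fold (just under the threshold unrounded) and 2.42-fold and by 1.89-fold and 1.48-fold, but their origin ratios in STR were 0.31 and -0.11. Inhibitory interneuron markers of STR included 2 of 10 that were at least 1.5-fold higher, VIP (4.19 and 1.46 FPKM, log2 ratio 1.46) and CALB2 (56.7 and 26.5, log2 ratio 1.09), and 0 lower, a share no higher than the 20.2% of all genes, with a median of 0.32 beside 0.31 for all genes. The part of cortical cells in the HTR2A and HTR1A ratios was not tested.

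In CER, HTR2C and HTR2A were at least 2-fold lower in Chinese-origin monkeys. HTR2C, the Gq-coupled receptor that the epithelium of the choroid plexus carries in large amounts, stood at 2.74 FPKM for Chinese and 9.72 for Indian origin. This is a log2 ratio of -1.79 (-1.89 relative to the median), a 3.46-fold difference, and 2.85% of measured genes had a lower ratio. HTR2A had 0.343 and 0.793, a log2 ratio of -1.01 (-1.11 relative to the median), at levels near the minimum of 0.5, and with a pseudocount of 1 this ratio was -0.42, under 1.5-fold. HTR1E was higher (3.95 and 2.54, log2 ratio 0.62), but relative to the median its ratio was 0.52, under 1.5-fold. Thus 3 of the 5 members measured in CER were at least 1.5-fold apart, 1 higher and 2 lower, beside 15.0% of 18338 measured genes (8.69% higher and 6.28% lower). With the median subtracted, HTR2C and HTR2A were lower and 0 members higher, beside 14.7% of all genes (7.47% higher and 7.27% lower). HTR2A counted as measured through its Indian-origin value alone, so this share is not read as a result about the members, and without a minimum it was 3 of 10. HTR5A, the leading member, had a log2 ratio of 0.45 and HTR1F one of 0.33. HTR1A, HTR1B, HTR4, HTR6 and HTR7 were under the minimum in both origins.

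Choroid plexus markers were lower in the same Chinese-origin CER samples. Of 11 measured markers of choroid plexus and ependyma, 9 were at least 1.5-fold lower and 0 higher, with a median log2 ratio of -1.49. Among all genes 6.28% were lower and 8.69% higher. Of the 9, SOSTDC1 (0.365 and 0.788 FPKM) and CCDC153 (0.246 and 0.687) counted as measured through their Indian-origin values alone. The summed FPKM of 673.5 and 2130 was mostly TTR, the thyroid hormone carrier of choroid plexus (639.7 and 2060). PRLR, the prolactin receptor, had 4.32 and 17.3 FPKM (log2 ratio -1.98), and CLIC6, a chloride channel relative, 0.869 and 3.41 (-1.86). KL (-1.79), which makes Klotho, and FOLR1 (-1.76), a folate receptor, were lower by about the same amount as HTR2C. None of these markers was at 0. The part of choroid plexus tissue in the HTR2C ratio was not tested.

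The HTR2C ratio was small in PFC, in the same direction as in CER, and lay on the other side of 0 in STR. Its FPKM was 4.39 and 4.85 in PFC (log2 ratio -0.14) and 12.1 and 9.23 in STR (0.39), in Chinese-origin and Indian-origin monkeys. In PFC 1 of 8 choroid plexus markers was at least 1.5-fold lower, beside 5.4% of all genes, and 4 of the 8 ratios were above 0. In STR 2 of 8 were higher and 1 lower, beside 20.2% higher and 4.56% lower among all genes. The median of the markers in STR was 0.08. The list's sums were 17.6 and 38.0 FPKM in PFC and 37.0 and 48.5 in STR. TTR was again the largest part (7.35 and 26.3 in PFC, 25.8 and 40.1 in STR). In the pooled values the regional order of HTR2C differed between the origins, which was not tested. In Chinese-origin monkeys CER was 1.58-fold lower than PFC and 4.31-fold lower than STR, whereas in Indian-origin monkeys CER was 1.98-fold higher than PFC and 1.05-fold higher than STR. HTR2A likewise had ratios on opposite sides of 0 in STR (1.43) and CER (-1.01), and the difference between the regions was not tested.

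**Figure D5:**
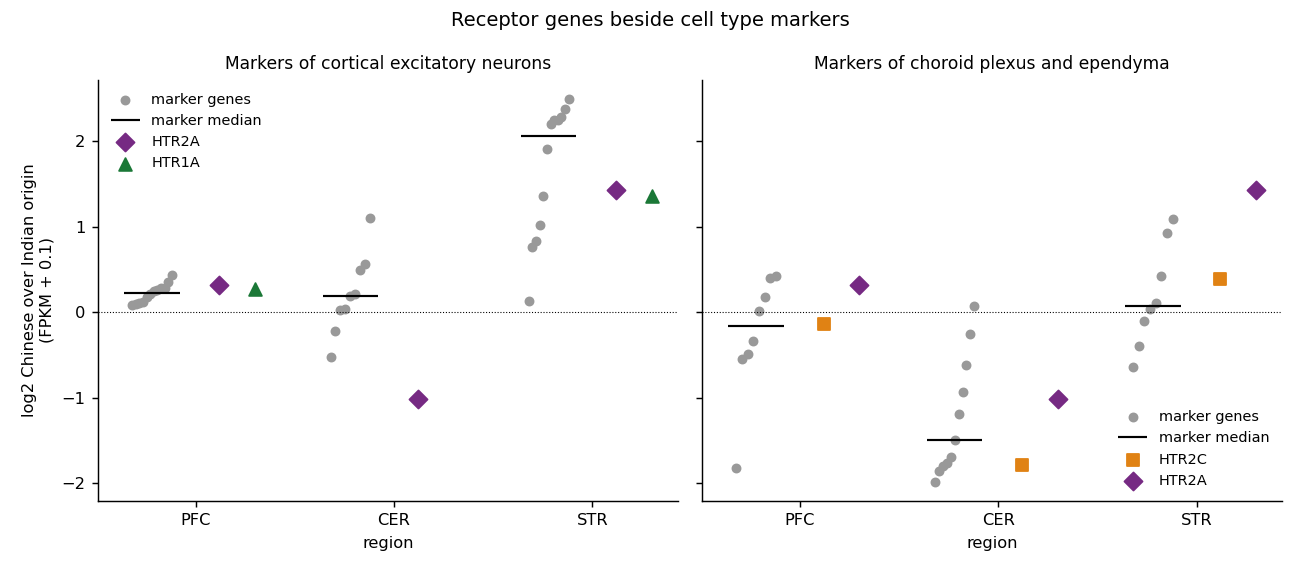
Log2 ratio of Chinese over Indian origin on FPKM + 0.1 (y axis) by region (x axis) for markers of cortical excitatory neurons (left) and of choroid plexus and ependyma (right), as gray points with a bar at their median, beside HTR2A (diamonds), HTR1A (triangles) and HTR2C (squares) where measured. The cortical markers have a median of 2.06 in STR, where HTR2A is at 1.43 and HTR1A at 1.36, and the choroid plexus markers have a median of -1.49 in CER, where HTR2C is at -1.79.

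Of the serotonin receptors outside the 10 members, 5 were in the tables. HTR1D, a Gi-coupled relative of HTR1B, stood at 4.79 FPKM for Chinese and 3.51 for Indian origin in STR and was under 0.5 in PFC (0.477 and 0.445) and CER, 8.46-fold and 6.63-fold higher in STR than in PFC. HTR2B, a Gq-coupled receptor best known from heart valves and gut, reached 0.763 and 0.587 in PFC. HTR3A in CER was 0.0244 and 0.0228, and HTR3B and HTR3C were listed at 0 there.

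Genes of serotonin synthesis, packaging, reuptake and breakdown were seldom apart between origins by the same fold, at counts close to or below the shares of all genes (24.8% in STR, 15.0% in CER and 14.6% in PFC). In PFC 0 of 8 measured genes were at least 1.5-fold apart. In CER 1 of 9 was lower (the vesicular transporter SLC18A1, 0.327 and 1.04 FPKM) and 0 were higher. In STR 1 of 8 was higher and 0 lower (the decarboxylase DDC, 0.515 and 0.282). SLC18A1 and DDC each counted as measured through their higher value alone, so these calls are not read as results. SLC6A4, the serotonin transporter of raphe neurons, had an FPKM of at most 0.129 in any group, whereas TPH1, the tryptophan hydroxylase best known outside the brain, had 26.4 to 34.0 in all 6 groups. TPH2, the other tryptophan hydroxylase, had 0.992 and 0.921 in CER, 0.101 and 0.121 in PFC, and 0.113 and 0.0545 in STR. The monoamine oxidase MAOB, which breaks down amines in glia and serotonin neurons, had 66.0 and 65.5 FPKM in PFC, 64.7 and 59.0 in STR, and 31.2 and 43.4 in CER (log2 ratio -0.48).

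In STR 28 effectors of the receptors were measured (G protein, adenylyl cyclase, phospholipase C and potassium channel genes, arrestins, RGS4 and S100A10). Of these, 7 were at least 1.5-fold higher in Chinese-origin monkeys and 0 lower. This was close to the share of all genes, 20.2% higher and 4.56% lower. The effectors' median log2 ratio was 0.45, beside 0.31 for all genes. The largest ratio was that of ADCY1, a calcium-stimulated adenylyl cyclase (25.2 and 12.5 FPKM, log2 ratio 1.01). Next were the inward rectifier channel subunits KCNJ6 (0.664 and 0.294, log2 ratio 0.96) and KCNJ3 (7.24 and 3.86, log2 ratio 0.89), which open on Gi activation. In STR KCNJ6 counted as measured through its Chinese-origin value alone, so its call there is not read as a result. In PFC 1 of 29 was higher (KCNJ6, 0.78) and 0 lower, beside 9.24% higher and 5.4% lower among all genes. In CER 0 of 28 were 1.5-fold apart, beside 15.0% of all genes.

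The genes whose 6 pooled values ran most nearly parallel to a member's were found among 13989 genes that had a symbol and reached 1 FPKM in any group. Likeness was the root mean square difference of log2(FPKM + 0.1) after each gene was centred on its own mean. HTR3A was nearest to HTR1A (0.07), and NHS, whose loss causes Nance-Horan syndrome, to HTR1E (0.07). In CER, however, HTR1A (0.0737 and 0.0617) and HTR3A (0.0244 and 0.0228) were below the added 0.1, which draws their values there together. The added 0.1 also weighs on HTR1B, HTR4, HTR6 and HTR7, which were not measured in CER. The nearest gene to HTR5A was CD2AP, a scaffold protein of the actin cytoskeleton (0.11), and to HTR1F it was CITED1 (0.11), a transcriptional coregulator. The nearest genes were CYP46A1, the neuronal cholesterol hydroxylase, for HTR1B (0.12), NRSN1 for HTR7 (0.11) and SYTL5 for HTR4 (0.18). HTR2A (TRPV2, 0.28), HTR6 (CPNE5, 0.25) and HTR2C (PTGFR, 0.29) had no gene as close. PTGFR, the receptor of prostaglandin F, had 7.81 FPKM in Indian-origin CER, the highest of its 6 values, and 4.95 and 4.97 in STR. The values of regions share monkeys and those of origins share a run, so these 6 values are a description of likeness with no test.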

How the data were processed

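Single-end reads of 50 bases from TruSeq libraries of total RNA were checked with FastQC, aligned by the authors to mmul1 with TopHat for Illumina on Galaxy with default settings, and quantified with Cuffdiff, for which the submitters' processing notes give version 0.0.5. The authors deposited 1 table per region, with 1 FPKM per gene and origin pooled over 3 monkeys. Fold changes, test statistics, p-values and q-values of the authors' own comparison were also in the tables and were not used. In STR 1 line that repeated the identifier above it was left out. Depth per library cannot be read from the pooled values, so no precision could be given for low FPKM values.

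Genes were taken by the symbol in the table, and 627 without one were named from the reference annotation. For a symbol listed at more than 1 locus, the locus with the largest total FPKM was taken, and each member had 1. Log2 ratios were taken on FPKM + 0.1, and a gene was measured where any of the values compared reached 0.5 FPKM. Calls were at least 1.5-fold between origins, and at least 2-fold in the same direction in both origins between regions. No test was run, since each group holds 1 pooled value. The code for calls and pattern search was checked on simulated data, with 2-fold changes and little noise in genes well above the minimum FPKM. This check cannot show how reliable the calls are at low FPKM or against the spread between monkeys.

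All 10 members were described. From the other lists, up to 4 genes past these folds were to be named, largest first. SLC6A4, TPH1, TPH2, MAOB, TTR, SOSTDC1, CCDC153, NRGN, HTR3A in CER and the remaining receptors were added after their values were seen. The members and lists were chosen with earlier results of these data known. Alternatives were pseudocounts of 0.01, 0.5 and 1, other folds, subtraction of the median, other minimum values, and sums over loci. Python 3.11.15, numpy 2.4.6, pandas 2.3.3 and matplotlib 3.10.9 were used. The values of 1 marker gene are not reported here.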

Additional observations from a re-analysis of the deposited data

How the results depend on the processing

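The counts of members apart between CER and PFC, and between CER and STR, stayed within 1.5 times of 7 and 6 under each of the 9 alternatives run. In PFC the count of 1 between origins was 0 with a pseudocount of 1, at 2-fold and with the median subtracted, and 2 at the smaller fold tried. In CER the count of 3 was 2 (HTR2A and HTR2C) with a pseudocount of 0.5, at 2-fold and with the median subtracted. With a minimum of 1 FPKM it was 2 (HTR1E and HTR2C), with a pseudocount of 1 it was 1 (HTR2C), and at the smaller fold 5. In STR the count of 4 was 2 (HTR1A and HTR2A) with a pseudocount of 0.5 or 1, at 2-fold and with the median subtracted, and 7 at the smaller fold. Between STR and PFC the count of 3 was 7 at 1.5-fold and 0 at 4-fold. No member's ratio past its threshold changed sign, and HTR1B, HTR1E and HTR4 between origins were the calls lost with the median subtracted. No paired analysis was possible because the tables hold 1 pooled value per group and the replicate numbers are not in their columns, and for the same reason no replicate could be left out. The pooling limits every ratio, since none has a replicate error, most of all those of HTR2A in CER and of the 5 members under an FPKM of 0.5 there.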
